A study of Mus musculus with 29 samples.

Results

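The genes described here are 43 DNA replication and S-phase genes, taken by symbol from a fixed list of replication licensing, fork and nucleotide-supply genes. All 43 were found among the 38924 genes of the count table, and all had counts in every library, the lowest being 3. The study measured polyA RNA from 4 blood-forming cell populations of mouse bone marrow, long-term haematopoietic stem cells (LT-HSC), short-term haematopoietic stem cells (ST-HSC) and the multipotent progenitors MPP3 and MPP4. Control LT-HSC had 4 libraries, mutant LT-HSC 3, control ST-HSC 3, mutant ST-HSC 4, control MPP3 3, mutant MPP3 4, control MPP4 4 and mutant MPP4 4, which makes 29. All groups came from young C57BL/6 mice 6 weeks after pIpC, a synthetic double-stranded RNA that induces interferon. Mutant libraries carry a Dnmt3a mutation, and the allele and any Cre driver were not given in the sources used here. Whether each library came from a separate animal is not stated, so p-values measure the spread between these libraries, which may be technical. Libraries of different populations within a genotype share numbers in their descriptions, and what these numbers name is not given. The main tests took all libraries as independent.

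Before a cell copies its DNA, the origin recognition complex (Orc1, Orc6) with Cdc6 and Cdt1 loads the ring of Mcm2 to Mcm7 onto DNA. Mcm10, Cdc45 and the GINS complex turn that ring into an active helicase, and polymerases, the Pcna clamp and its Rfc loader then copy the strands. Many of these genes are transcribed by E2F factors as cells leave G1, and blood stem cells are known to divide rarely while their progeny divide more often.

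The start regions of these genes are shown first because they share letters that the list did not use. RefSeq (GRCm38.p6) gave a region of 250 bases before to 50 bases after the start for 35 of the 43 genes. These regions were searched on both strands, with overlaps allowed, for the E2F letters TTTCCCGC, TTTGGCGC, TTTCGCGC and TTTGCCGC. At least 1 of these was present in 13 of the 35 regions (37.1%), against 704 of 27025 regions of the same length over all genes (2.6%). Of 59 further replication genes 47 had a region, and 17 of the 47 held the letters (36.2%), while 1 of 21 regions of G2 and mitosis genes did (4.76%). The 13 genes were Mcm3, Mcm5, Mcm6, Mcm7, Orc1, Cdc6, Cdt1, Gins3, Rfc3, Pola1, Pold1, Pole2 and Lig1. Mcm6 and Mcm5, subunits of the helicase ring, each held overlapping copies, and their 180 bases before the start are shown with the matches in capitals, Mcm6 from the minus strand (chr1:128359706-128359885) and Mcm5 from the plus strand (chr8:75109329-75109508).
Mcm6: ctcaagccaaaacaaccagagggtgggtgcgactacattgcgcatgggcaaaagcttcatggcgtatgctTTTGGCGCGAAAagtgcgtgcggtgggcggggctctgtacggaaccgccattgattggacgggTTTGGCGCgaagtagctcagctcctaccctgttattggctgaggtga
Mcm5: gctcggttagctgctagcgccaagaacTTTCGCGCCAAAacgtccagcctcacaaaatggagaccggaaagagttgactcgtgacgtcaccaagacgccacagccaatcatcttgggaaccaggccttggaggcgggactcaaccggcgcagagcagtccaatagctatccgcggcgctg
In Mcm6 a copy of TTTGGCGC began 110 bases before the start and was overlapped by TTTCGCGC on the other strand, and a further TTTGGCGC began 47 bases before it. In Mcm5 the pair overlapped in the opposite order, 153 and 149 bases before the start.

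Short sites are shown for Mcm3, Pola1, Pold1 and Lig1, which passed the test in MPP3 against ST-HSC below, each with its match in capitals: Mcm3 from the minus strand (chr1:20820275-20820304), Pola1 from the minus strand (chrX:93632275-93632304), Pold1 from the minus strand (chr7:44548766-44548787) and Lig1 from the plus strand (chr7:13278841-13278870).
Mcm3: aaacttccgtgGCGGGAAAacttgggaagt
Pola1: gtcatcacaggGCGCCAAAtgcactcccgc
Pold1: cgtatcttgtgGCGGGAAAagc
Lig1: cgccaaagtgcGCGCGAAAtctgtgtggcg
These copies lay before the start in Pola1 and within the first 50 transcribed bases in Mcm3, Pold1 and Lig1. The letters CCAAT were present in 22 of the 35 regions (62.9%), against 41.1% of all regions and 81% of those of the G2 and mitosis genes. TTTGAA, letters of the element that G2 and mitosis genes carry, was present in 5 of the 35 (14.3%), against 20.2% of all regions and 71.4% of those of the G2 and mitosis genes. The differences between these shares were not tested. A match describes letters in this window and is not a measured site of binding.

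Libraries held 6133994 to 10374672 counts, with a median of 8154515. Levels below are CPM, a library's counts scaled by TMM to a common total. Slamf1, which encodes the stem cell surface protein CD150, was at 14.16 to 54.15 CPM in LT-HSC, 0 to 3.52 CPM in MPP3 and 0 to 0.121 CPM in MPP4. Of the 7 ST-HSC libraries, 6 were at 0.765 to 2.15 CPM, and mutant ST-HSC replicate 2 went against its label at 405.9 CPM. That library and mutant MPP3 replicate 1 detected the fewest genes, 14802 and 14302, against at least 15775 in the others. Summed levels of 6 LT-HSC markers were 670 to 1469 CPM in LT-HSC and 1008 to 2201 in ST-HSC, so that list did not place LT-HSC above ST-HSC. The MPP3 and MPP4 marker lists were highest in the populations of those names. In control LT-HSC, 9 neutrophil markers summed to 11820, 3873, 1660 and 47.72 CPM in replicates 1 to 4, and 9 erythroid markers to 20756, 4523, 6558 and 368.3 CPM. Summed levels of 6 antibody-secreting cell markers were 1064 to 14860 CPM in the 7 MPP3 libraries, 66.56 to 1698 in ST-HSC, 64.52 to 308.1 in LT-HSC and 55.45 to 117 in MPP4. Dnmt3a was counted over the whole gene at 81.98 to 222.5 CPM in all groups and does not check the genotype.

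By their mean sum, replication genes were lowest in ST-HSC and highest in MPP3. The 43 levels summed to 2300 ± 108 CPM in ST-HSC (SD, n = 7), 2756 ± 392 in LT-HSC (n = 7), 2999 ± 303 in MPP4 (n = 8) and 3270 ± 342 in MPP3 (n = 7). The highest ST-HSC library had 2487 CPM and the lowest MPP4 and MPP3 libraries 2628 and 2939, so neither progenitor overlapped ST-HSC in the sum. LT-HSC ran from 2314 CPM to 3421 CPM in control LT-HSC replicate 1, the library with the most neutrophil and erythroid marker RNA, and overlapped all other populations. The part of those cells in its value was not tested. By mean level, ST-HSC was the lowest population for 31 of the 43 genes and MPP3 the highest for 32. ST-HSC was lowest for 31 genes among control libraries and 28 among mutant libraries. MPP3 was highest for 24 genes among control libraries and 25 among mutant libraries, and MPP4 for 11 and 13. In bulk RNA, fewer cells in S phase and less RNA of these genes per cell cannot be told apart.

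**Figure D1:**
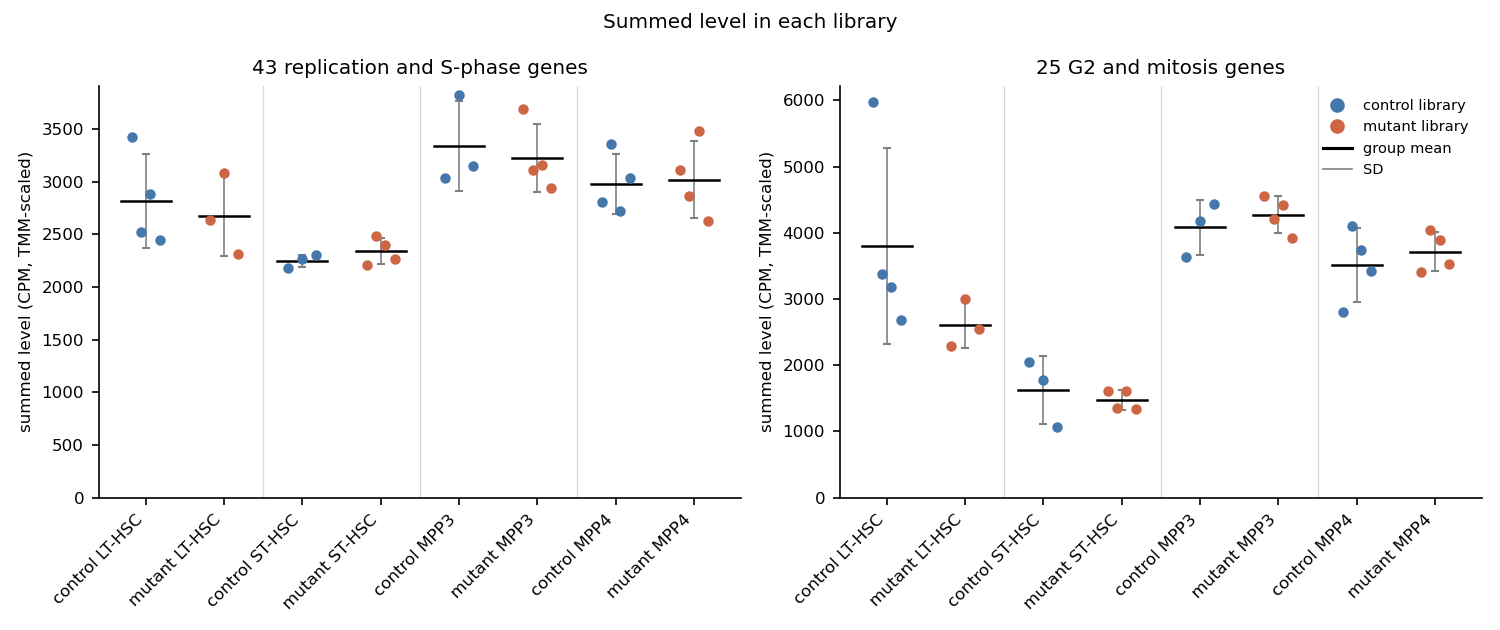
Summed level in CPM of the 43 replication genes and of 25 G2 and mitosis genes in each of the 29 libraries, 1 point per library, grouped by genotype and population, with a bar at each group's mean and its SD. ST-HSC libraries, at 2183 to 2487 CPM for the replication genes, lie below every MPP3 and MPP4 library, and control LT-HSC replicate 1 stands above the rest of its group in both panels.

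Per length of annotated exon, Pcna, the sliding clamp, had the highest level, 112.4 CPM per kb over all libraries. Mcm6 followed with 35.69 CPM per kb and Rfc1, the large subunit of the clamp loader, with 35.11. Ccne1, the cyclin E1 that drives entry into S phase, was the lowest at 2.665 CPM per kb. Rfc1 varied least between libraries (coefficient of variation 11.9%) and Gins3, a GINS subunit of low level, most (109%).

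The comparisons planned for each genotype alone called few genes, so the mean of the control and mutant differences was also tested in a fit of all 29 libraries. This was added after those results were seen. In that fit MPP3 was above ST-HSC for 40 of the 43 genes and below it for 3, and 17 passed an adjusted p of 0.05 (edgeR's quasi-likelihood test with Benjamini-Hochberg adjustment), all higher in MPP3. Over all 15915 genes tested, 10.5% were called, 5.91% higher in MPP3 and 4.56% lower. The median log2 difference was 0.62 over the 43 genes and -0.04 over all genes. The fit of MPP4 against ST-HSC, which uses the same ST-HSC libraries, gave 36 genes higher and 7 lower, of which 10 were called, all higher, against 6.74% of all genes called and 3.22% called higher. Its medians were 0.43 over the 43 genes and -0.03 over all genes. For 8 of the 43 genes (18.6%) every MPP3 library was above every ST-HSC library, against 2.03% of all genes, and for 3 (6.98%) every MPP4 library was, against 1.17%.

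The MPP3 and ST-HSC libraries also differed in other markers: the 6 antibody-secreting cell markers, none of them at 0 in either population, were below the lowest MPP3 library (1064 CPM) in 6 of the 7 ST-HSC libraries, and control ST-HSC replicate 1 had 1698 CPM. Their part in the MPP3 values was not tested. In MPP4 the same markers summed to 55.45 to 117 CPM, and their part in the MPP4 values was not tested either. Without mutant ST-HSC replicate 2, which went against its label, 17 genes were again called in MPP3, of which 14 were among those 17: Pcna (adjusted p = 0.0594), Cdt1 (0.0674) and Tk1 (0.0769) lost the call and Mcm2, Mcm7 and Orc6 gained it. In MPP4 there were 10, with Tyms lost and Mcm7 gained. Without that library and mutant MPP3 replicate 1 there were 17 in MPP3, with Pcna (adjusted p = 0.113), Cdt1 (0.108) and Fen1 (0.157) lost and Orc6, Prim1 and Ccne2 gained, and 11 in MPP4, with Tyms lost and Mcm7 and Prim1 gained. The MPP3 count was 11 without mutant ST-HSC replicate 1 and also 11 without control MPP3 replicate 2. Over the 29 fits that left out 1 library, 6.99 to 10.7% of all genes were called in MPP3 and 4.73 to 8% in MPP4. Of the 17 calls, 10 passed in all 29 fits that left out 1 library and in all 9 other settings: Mcm3, Mcm10, Cdc45, Prim2, Pold1, Pole, Lig1, Rrm1, Rrm2 and Tyms. The other 7 kept the call in 27 (Pola1), 22 (Pcna), 21 (Mcm4), 20 (Cdt1), 19 (Mcm5), 14 (Fen1) and 10 (Tk1) of the 29 fits that left out 1 library. Of the 10 calls in MPP4, Mcm6, Prim2, Pold1, Pole, Lig1 and Rrm1 passed in all of these. Mcm10 lost it without control ST-HSC replicate 3 (adjusted p = 0.0706), Cdc45 without that library (adjusted p = 0.067) or control MPP4 replicate 2 (adjusted p = 0.0543), and Mcm3 and Tyms kept it in 24 and 15 of the 29. Libraries carry 1 of 2 prefixes in their column names, whose meaning is not given, and each prefix holds both genotypes. Within each prefix 38 of the 43 genes were higher in MPP3 than in ST-HSC, with median log2 ratios of 0.53 and 0.64. MPP3 and MPP4 had close mean sums in the first prefix, 3043 and 3033 CPM, and 3441 and 2964 CPM in the second.

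**Figure D2:**
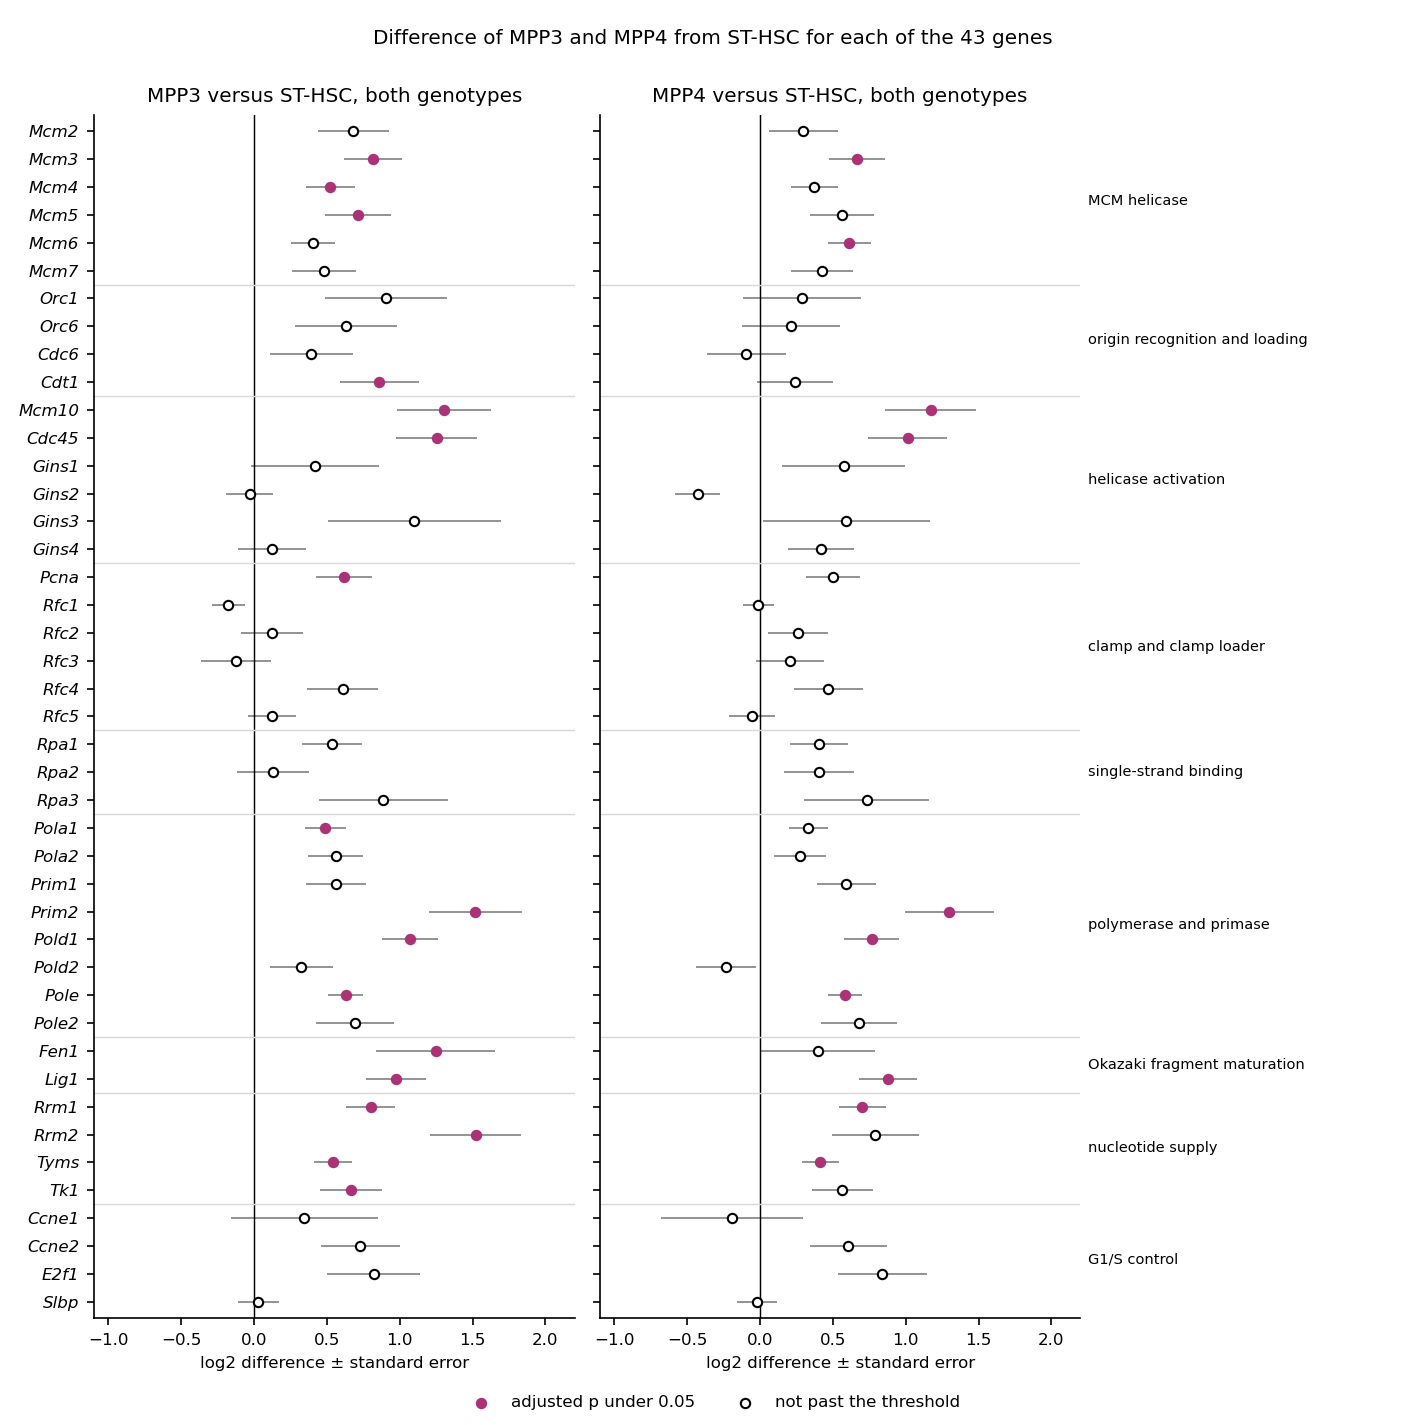
Log2 difference from ST-HSC, with its standard error, of each of the 43 genes in MPP3 (left) and MPP4 (right), both genotypes together, ordered by role. Filled points passed an adjusted p of 0.05, 17 in MPP3 and 10 in MPP4, and all lie to the right of 0.

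The helicase ring and its loaders. All 6 ring subunits were above ST-HSC in both progenitors, and Mcm3, Mcm4 and Mcm5 were called in MPP3. Mcm3 ran from 60.64 to 92.78 CPM in ST-HSC (median 84.74), 103.1 to 181.3 in MPP3 (median 121.7) and 92.79 to 168.7 in MPP4 (median 105.5). No MPP3 or MPP4 library was as low as any ST-HSC library, though the lowest MPP4 value and the highest ST-HSC value lay side by side. The log2 difference of Mcm3 from ST-HSC was 0.82 ± 0.20 in MPP3 (SE, adjusted p = 0.00635) and 0.67 ± 0.19 in MPP4 (adjusted p = 0.0292). Mcm4 was higher by 0.52 ± 0.17 in MPP3 (adjusted p = 0.0394). Mcm5 ran from 48.38 to 95.13 CPM in ST-HSC (median 67.76) and 83.57 to 170.9 in MPP3 (median 104.5), and the ranges overlapped. Mcm5 was higher by 0.71 ± 0.23 in MPP3 (adjusted p = 0.0412) and lost the call without control MPP3 replicate 2 (adjusted p = 0.159). Mcm6 was called in MPP4, by 0.61 ± 0.15 (adjusted p = 0.00815), and not in MPP3, at 0.41 ± 0.15 (adjusted p = 0.085). The difference of Mcm6 between MPP4 and MPP3 was 0.21 ± 0.15 (adjusted p = 0.532). Mcm2 and Mcm7 were not called in either.

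Among the 4 genes that mark origins and load the ring, Cdt1, which brings the Mcm ring to the origin, was called in MPP3 by 0.86 ± 0.27 (adjusted p = 0.04). Cdt1 ran from 13.11 to 47.82 CPM in ST-HSC (median 27.07) and 36.48 to 66.92 in MPP3 (median 47.76), with overlap. In MPP4 it was 0.24 ± 0.26 above ST-HSC (adjusted p = 0.692). Gm20388, a gene on the same strand that overlaps Cdt1, was at a mean of 22.57 CPM against 35.52 for Cdt1. Gm20388 was 0.261 ± 0.501 above ST-HSC in MPP3 (adjusted p = 0.802), and its part in the Cdt1 counts was not tested. Orc1, Orc6 and Cdc6 were not called in MPP3 or MPP4. Cdc6, the ATPase that works with Cdt1, had medians of 33.09 CPM in ST-HSC, 43.21 in MPP3, 32.1 in MPP4 with 32.99 for LT-HSC, and its 1 high library was control LT-HSC replicate 1 with 106.9 CPM.

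Genes that switch the helicase on. Mcm10 and Cdc45 were called in both progenitors. Mcm10, needed to start unwinding, ran from 2.444 to 25.78 CPM in ST-HSC (median 16.5), 12.25 to 49.5 in MPP3 (median 42.68) and 28.82 to 44.94 in MPP4 (median 34.15). The lowest values in ST-HSC and MPP3 were those of mutant ST-HSC replicate 2 and mutant MPP3 replicate 1, the libraries with the fewest genes, and MPP4 and ST-HSC did not overlap. Mcm10 was higher by 1.30 ± 0.32 in MPP3 (adjusted p = 0.00787) and 1.17 ± 0.31 in MPP4 (adjusted p = 0.0183). Cdc45, the helicase cofactor, ran from 5.407 to 15.98 CPM in ST-HSC (median 12.28) and from 19.43 to 48.06 in MPP3 (median 23.41), with no overlap. Cdc45 was higher by 1.25 ± 0.28 in MPP3 (adjusted p = 0.00342) and 1.01 ± 0.27 in MPP4 (adjusted p = 0.0185).

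None of the 4 GINS genes was called against ST-HSC in the main edgeR fits. With the number in the description as a block, edgeR called Gins2 in MPP4 against ST-HSC over both genotypes. In the main edgeR fit over both genotypes, Gins2 was called lower in MPP4 than in LT-HSC, where 4.31% of all genes were called lower. No other of the 43 was called lower in a pair of populations in that fit. Over both genotypes DESeq2 also called Lig1, Tyms and Rrm1 lower in ST-HSC than in LT-HSC, and among controls Rrm2 and Tk1. Gins2 had a median of 143 CPM in LT-HSC (106.6 to 196.1), 116.4 in ST-HSC (101.5 to 169.2), 125.4 in MPP3 (90.98 to 137.5) and 83.75 in MPP4 (75.38 to 121.2). Gins2 was lower in MPP4 than in LT-HSC by 0.70 on the log2 scale (-0.697 ± 0.156, adjusted p = 0.00378), and that call passed in every fit that left out 1 library and every other setting. Gse1, a gene on the opposite strand that overlaps Gins2, was at a mean of 207.5 CPM and was also lower in MPP4 than in LT-HSC (-1.062 ± 0.137, adjusted p = 2.89e-06). Gm20388, also on the opposite strand over Gins2, was at a mean of 22.57 CPM and was not called there (0.856 ± 0.487, adjusted p = 0.398). The sources used here do not give the strand of the counting, so reads of Gins2 and Gse1 cannot be told apart.

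Clamp, loader and single-strand binding. Pcna rose in MPP3 and the 5 loader genes did not pass. Pcna ran from 176.2 to 238.5 CPM in ST-HSC (median 202.3), 241.3 to 420.5 in MPP3 (median 285.6) and 183.3 to 445.4 in MPP4 (median 271.1), so MPP3 and ST-HSC did not overlap and MPP4 and ST-HSC did. Pcna was higher by 0.62 ± 0.19 in MPP3 (adjusted p = 0.0336) and 0.50 ± 0.19 in MPP4 (adjusted p = 0.11). It lost the MPP3 call without control MPP3 replicate 2 (adjusted p = 0.142). Counts of the Pcna pseudogenes Pcna-ps2 and Pcna-ps1 were low, at means of 0.208 and 0 CPM. Rfc1 was at 194.3 to 250.7 CPM in ST-HSC and 164.8 to 234.6 in MPP3, a log2 difference of -0.18 ± 0.11 (adjusted p = 0.351). Rfc3, a small loader subunit, was at a median of 16.36 CPM in ST-HSC, 13.49 in MPP3, 20.98 in MPP4 and 16.45 in LT-HSC. The loader genes Rfc2 and Rfc5 were 0.12 ± 0.21 and 0.12 ± 0.16 above ST-HSC in MPP3. Rpa1, Rpa2 and Rpa3, which coat unwound DNA, were not called, with log2 differences from ST-HSC of 0.54 ± 0.21, 0.13 ± 0.25 and 0.89 ± 0.44 in MPP3. Rpa2 had overlapping ranges of 23.97 to 78.31 CPM in ST-HSC and 32.88 to 63.47 in MPP3.

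Polymerases and primase. The 8 genes of this role were all above ST-HSC in MPP3, and Pold1, Pole, Prim2 and Pola1 were called. Pole, the catalytic subunit of the leading strand polymerase, separated ST-HSC from both progenitors. It was at 83.13, 112.1 and 85.31 CPM in control ST-HSC and 86.15, 86.49, 89.05 and 85.55 in mutant ST-HSC. In control MPP3 it was at 141.8, 132.2 and 150.7 CPM and in mutant MPP3 at 163.7, 132.2, 129 and 123. All MPP3 and MPP4 libraries lay at 120.8 CPM or above, over the highest ST-HSC library. Pole was higher by 0.63 ± 0.12 in MPP3 (adjusted p = 0.000936) and 0.58 ± 0.12 in MPP4 (adjusted p = 0.00175).

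Pold1, the catalytic subunit of the lagging strand polymerase, was at 32.55, 14.58 and 26.26 CPM in control ST-HSC and 28.2, 43.81, 21.29 and 28.11 in mutant ST-HSC. In control MPP3 it was at 62.47, 48.88 and 41.94 CPM and in mutant MPP3 at 86.47, 59.88, 56.8 and 53.65. The 1 ST-HSC library inside the MPP3 range was mutant ST-HSC replicate 2. Pold1 was higher by 1.07 ± 0.19 in MPP3 (adjusted p = 0.000419, the smallest of the 43) and 0.77 ± 0.19 in MPP4 (adjusted p = 0.00913).

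Prim2, the large primase subunit, ran from 2.068 to 17.15 CPM in ST-HSC (median 11.19) and 19.19 to 43.42 in MPP3 (median 28.28), without overlap. Prim2 was higher by 1.52 ± 0.32 in MPP3 (adjusted p = 0.0019) and 1.30 ± 0.31 in MPP4 (adjusted p = 0.00741), differences of 2.87-fold and 2.46-fold. Pola1, the catalytic subunit of the polymerase that extends primers, was higher by 0.49 ± 0.14 in MPP3 (adjusted p = 0.0198). The accessory subunits Pola2, Pold2 and Pole2 and the small primase subunit Prim1 were not called, at 0.56 ± 0.19, 0.33 ± 0.22, 0.69 ± 0.27 and 0.56 ± 0.21 above ST-HSC in MPP3.

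Joining of lagging strand fragments. Lig1, which seals the nicks, ran from 24.51 to 78.7 CPM in ST-HSC (median 62.32), 85.47 to 144.2 in MPP3 (median 102.8) and 71.67 to 133.3 in MPP4 (median 97.92). MPP3 lay above every ST-HSC library. Lig1 was higher by 0.97 ± 0.21 in MPP3 (adjusted p = 0.00217) and 0.88 ± 0.20 in MPP4 (adjusted p = 0.00526). Fen1, which trims flaps, was at 13.11, 20.23 and 15.12 CPM in control ST-HSC, 22.7, 31.77, 24.4 and 15.38 in mutant ST-HSC, 29.4, 72.56 and 30.18 in control MPP3 and 121.2, 22.11, 27 and 25.25 in mutant MPP3. Its difference was 1.25 ± 0.41 (adjusted p = 0.0465), and without mutant MPP3 replicate 1, the library at 121.2 CPM, it was 0.76 (adjusted p = 0.189). Gm10143, an antisense gene over Fen1 with a mean of 27.06 CPM against 28.51 for Fen1, was 0.91 ± 0.34 above ST-HSC in MPP3 (adjusted p = 0.0883), and without strand the reads of the pair cannot be told apart.

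Nucleotide supply. All 4 genes were called in MPP3: Rrm1 and Rrm2, the subunits of ribonucleotide reductase, Tyms, which makes thymidylate, and Tk1, which salvages thymidine. Rrm2 was at 50.14, 25.89 and 16.39 CPM in control ST-HSC and 29.61, 44.75, 36.99 and 38.33 in mutant ST-HSC. In control MPP3 it was at 112.4, 127.1 and 78.48 CPM and in mutant MPP3 at 43.42, 104.8, 117 and 93.83. The 1 MPP3 library within the ST-HSC range was mutant MPP3 replicate 1. Rrm2 was higher by 1.52 ± 0.31 in MPP3 (adjusted p = 0.00157), or 2.87-fold, and by 0.79 ± 0.30 in MPP4 (adjusted p = 0.118).

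Rrm1 ran from 57.34 to 124 CPM in ST-HSC (median 89.51), 139.3 to 195.8 in MPP3 (median 151.5) and 117.9 to 191.4 in MPP4 (median 143.8). It was higher by 0.80 ± 0.17 in MPP3 (adjusted p = 0.00186) and 0.70 ± 0.16 in MPP4 (adjusted p = 0.00578). Tyms ran from 62.23 to 102.2 CPM in ST-HSC (median 88.51) and 115.2 to 144 in MPP3 (median 124.5), without overlap, and was higher by 0.54 ± 0.13 in MPP3 (adjusted p = 0.00694) and 0.41 ± 0.13 in MPP4 (adjusted p = 0.0446). Tk1 was higher by 0.66 ± 0.22 in MPP3 (adjusted p = 0.0448) and kept that call in 10 of the 29 fits that left out 1 library.

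Control of S-phase entry. None of E2f1, the transcription factor of this programme, the cyclins Ccne1 and Ccne2, or Slbp, which binds histone messages, was called against ST-HSC. E2f1 ran from 6.526 to 16.78 CPM in ST-HSC and 9.391 to 46.95 in MPP3, a difference of 0.82 ± 0.32 (adjusted p = 0.0973). Ccne2 ran from 5.093 to 18.24 CPM in ST-HSC and 12.25 to 23.14 in MPP3, a difference of 0.73 ± 0.27 (adjusted p = 0.0824). Ccne1 was at 1.802 to 14.14 CPM in ST-HSC and 2.806 to 14.97 in MPP3, and Slbp at 101.2 to 166.3 and 111.8 to 158.1, so both overlapped almost entirely.

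**Figure D3:**
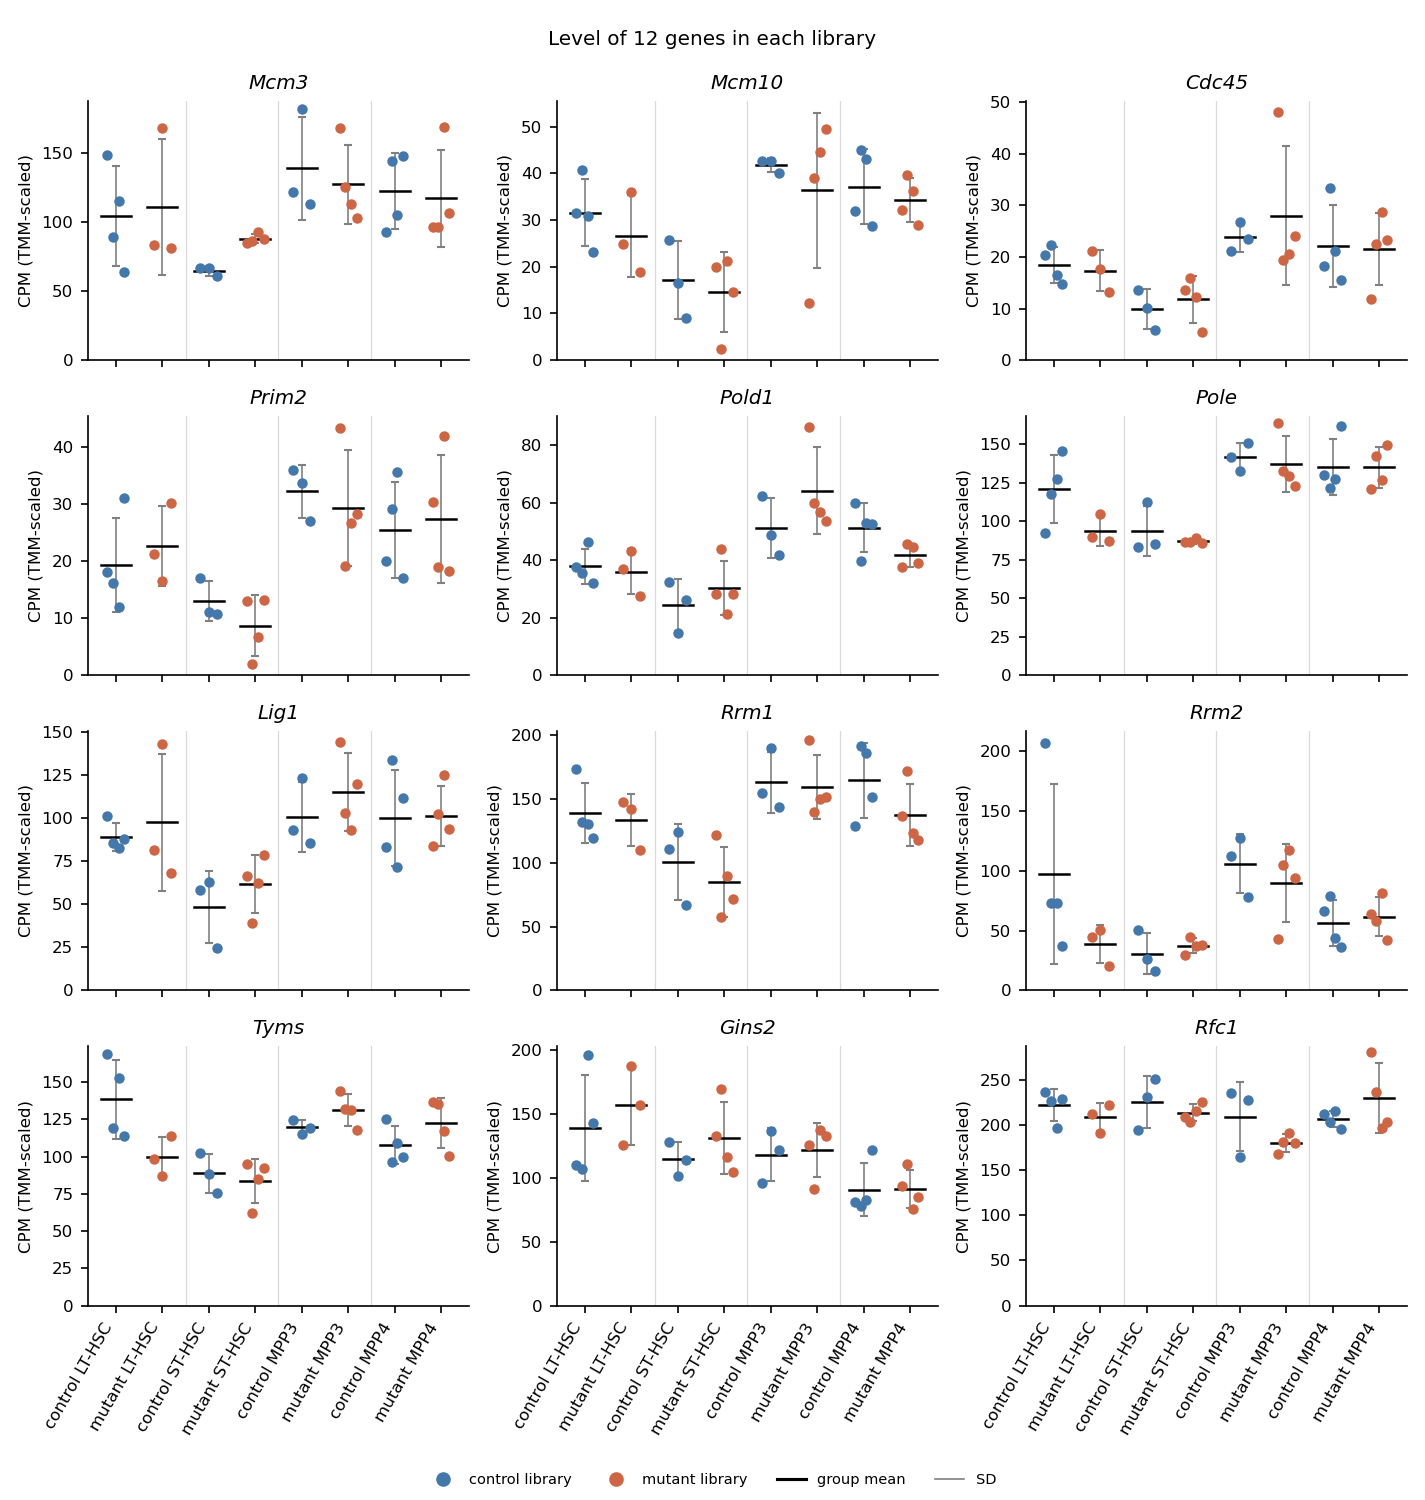
Level in CPM of 12 of the genes in each library, 1 point per library in 8 groups, with a bar at each group's mean and its SD. In Pole all MPP3 and MPP4 points (120.8 CPM or above) lie over the ST-HSC points, while Rfc1 overlaps between the 4 populations and the group means of Gins2 are lowest in MPP4. Colours mark the genotype.

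The calls can be set beside the E2F letters. Of the 17 genes called in MPP3, 14 had a start region and 6 of those held the letters (42.9%), and of the 26 not called, 21 had a region and 7 held them (33.3%). The difference between these shares was not tested.

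By its mean sum LT-HSC lay between ST-HSC and the progenitors. In ST-HSC against LT-HSC, 34 of the 43 genes were lower and 9 higher, with a median log2 difference of -0.24, and none was called, against 1.39% of all genes. At an unadjusted p under 0.05 there were 15, all lower in ST-HSC, against 11.6% of all genes in either direction. DESeq2 called 3, Lig1, Tyms and Rrm1, against 2.8% of all genes. The smallest p was that of Lig1, at 68.11 to 142.7 CPM in LT-HSC and 24.51 to 78.7 in ST-HSC (-0.77 ± 0.21, adjusted p = 0.0559). It was followed by Tyms (-0.45 ± 0.13, adjusted p = 0.0904), Rrm1 (-0.56 ± 0.17, adjusted p = 0.0987), Prim2 (-0.97 ± 0.32, adjusted p = 0.146) and Pole2 (-0.79 ± 0.27, adjusted p = 0.17). Without control LT-HSC replicates 1, 2 and 3, the libraries with neutrophil and erythroid RNA, the median was -0.16. That fit left replicate 4 alone in control LT-HSC.

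MPP3 was above LT-HSC for 37 of the 43 genes, with 2 called, both higher, against 7.4% of all genes called and 3.86% called higher. They were Pold1 (0.63 ± 0.19, adjusted p = 0.0395) and Pole (0.39 ± 0.12, adjusted p = 0.048). Neither kept the call without control LT-HSC replicates 1, 2 and 3, the libraries with the neutrophil and erythroid RNA. That fit left replicate 4 alone in control LT-HSC. The count was 5 without control LT-HSC replicate 1, with Pole lost and Mcm5, Cdt1, Fen1 and Rrm2 gained, and 3 without mutant LT-HSC replicate 2. It was 0 without mutant LT-HSC replicate 1 or 3, control LT-HSC replicate 2, control MPP3 replicate 1 or 2, or mutant MPP3 replicate 1, and 1 or 2 without each of the others. Over the 29 fits that left out 1 library, 4.3 to 8.47% of all genes were called. MPP4 was above LT-HSC for 32 genes and below for 11, with Gins2 alone called, against 7.18% of all genes. MPP4 against MPP3 had 34 genes lower and 9 higher and none called by edgeR, DESeq2 or limma, against 5.79% of all genes called by edgeR. At an unadjusted p under 0.05 there were 5, against 17.1% of all genes, all lower in MPP4: Pold2 (-0.56 ± 0.21, adjusted p = 0.123), Gins2 (-0.40 ± 0.16, adjusted p = 0.154), Rrm2 (-0.73 ± 0.29, adjusted p = 0.167), Cdt1 (-0.62 ± 0.26, adjusted p = 0.194) and Fen1 (-0.85 ± 0.39, adjusted p = 0.244).

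Within 1 genotype the same ordering rested on 3 or 4 libraries a group. Control MPP3 against control ST-HSC had 38 of 43 genes higher, a median of 0.70 and 22 genes at an unadjusted p under 0.05, all higher. Over all genes 15.8% had such a p. Tk1 alone passed the adjustment, against 1.75% of all genes called and 0.984% called higher. Tk1 was at 29.38, 26.68 and 28.49 CPM in control ST-HSC and 47.36, 59.48 and 54.54 in control MPP3, without overlap (0.93 ± 0.22, adjusted p = 0.0416). That count was 0 in 9 of the 14 fits that left out 1 control library and 3 in 3 of them. Over the 14 fits 0.275 to 2.52% of all genes were called. Mutant MPP3 against mutant ST-HSC had 39 of 43 genes higher, 13 at an unadjusted p under 0.05 (18% of all genes) and 5 called, all higher, against 4.27% of all genes called and 2.82% called higher. They were Pold1 (1.08 ± 0.26, adjusted p = 0.0237), Rrm1 (0.90 ± 0.23, adjusted p = 0.0276), Rrm2 (1.25 ± 0.32, adjusted p = 0.0306), Pole (0.65 ± 0.17, adjusted p = 0.0316) and Prim2 (1.73 ± 0.47, adjusted p = 0.0433). Leaving out any 1 mutant ST-HSC or MPP3 library lowered this count to between 1 and 3. Over the 15 fits that left out 1 mutant library, 2.63 to 4.4% of all genes were called. With the number in the description as a block, 2 kept the call, Pold1 and Rrm1, against 4.06% of all genes.

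Control MPP4 against control ST-HSC had 37 genes higher, 14 at an unadjusted p under 0.05 (15% of all genes) and none called, against 1.49% of all genes. DESeq2 called 6, against 4.07% of all genes. The smallest p-values were those of Pold1 (1.05 ± 0.28, adjusted p = 0.0671), Lig1 (1.03, adjusted p = 0.0951), Mcm6 (0.78, adjusted p = 0.0975), Mcm10 (1.10, adjusted p = 0.102) and Mcm3 (0.91, adjusted p = 0.114). Mutant MPP4 against mutant ST-HSC had 38 genes higher, 14 at an unadjusted p under 0.05 (13% of all genes), 12 higher and 2 lower, and none called, against 2.24% of all genes. DESeq2 called 2, against 4.92% of all genes. The smallest p-values were those of Pole (0.64 ± 0.17, adjusted p = 0.0501), Prim2 (1.65, adjusted p = 0.0804), Rrm1 (0.70, adjusted p = 0.129), Tyms (0.56, adjusted p = 0.149) and Pold2, which was lower in MPP4 (-0.88, adjusted p = 0.154). Over the 43 genes, MPP3 and ST-HSC differed in the same direction in controls and mutants for 36, 35 higher and 1 lower, and in opposite directions for 7.

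The other 8 comparisons within a genotype called none of the 43 in the main edgeR fits. In them 0 to 11 genes had an unadjusted p under 0.05, and DESeq2 called 0 to 2, against 1.3 to 7.12% of all genes. In control ST-HSC against control LT-HSC (0.1% of all genes called) 11 genes had an unadjusted p under 0.05, all lower in ST-HSC, against 10.4% of all genes. There the smallest p-values were those of Tk1 (-0.78, adjusted p = 0.14), Rrm2 (-1.63), Tyms, Lig1 and Prim1. In mutant ST-HSC against mutant LT-HSC (0.278% called) they were those of Prim2 (-1.37, adjusted p = 0.434), Rrm1, Lig1, Pole2 and Mcm6, also lower in ST-HSC, and 3 genes had an unadjusted p under 0.05 against 7.93% of all genes. In MPP3 against LT-HSC they were those of Mcm4, Cdt1, Prim2, Gins1 and Rfc4 in controls (Mcm4 0.54, adjusted p = 0.361, with 1.39% called) and of Rrm2, Pole, Pold1, Fen1 and Cdt1 in mutants (Rrm2 1.19, adjusted p = 0.077, with 2.95% called), all higher in MPP3. Unadjusted p-values under 0.05 numbered 3 (13.3% of all genes) and 5 (14.1%). In MPP4 against LT-HSC they were those of Rfc2, Gins2, Tyms, Mcm6 and Gins1 in controls (Rfc2 0.88, adjusted p = 0.0947, with 4.51% called) and of Gins2, Pole, Rfc4, Slbp and Rrm2 in mutants (Gins2 -0.79, adjusted p = 0.082, with 2.18% called). Unadjusted p-values under 0.05 numbered 2 in each, against 15.6% of all genes in controls and 10.4% in mutants. In MPP4 against MPP3, with 1.44% of all genes called in each genotype, they were those of Rrm2, Rpa3, Cdc6, Cdt1 and Tk1 in controls (Rrm2 -0.92, adjusted p = 0.488) and of Pold2, Pola2, Rfc1, Pold1 and Gins2 in mutants (Pold2 -0.83, adjusted p = 0.238), and unadjusted p-values under 0.05 numbered 0 (11.2% of all genes) and 4 (11.5%).

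Other cell cycle genes were also higher in the progenitors. Of the 59 further replication genes, 17 were called higher in MPP3 than in ST-HSC (5.91% of all genes) and none lower (4.56% of all genes). Their median log2 difference was 0.50. In MPP4 13 were called higher (median 0.39), against 3.22% of all genes. The smallest p-values in MPP3 were those of Ticrr, which helps fire origins (1.44 ± 0.18, adjusted p = 6.61e-06), the repressor E2f8 (1.07 ± 0.19, adjusted p = 0.000256), Atad2 (0.74 ± 0.13, adjusted p = 0.000346), the histone chaperone Asf1b (1.90 ± 0.37, adjusted p = 0.000874) and the repair gene Brca1 (1.14 ± 0.25, adjusted p = 0.00266). In ST-HSC against LT-HSC 4 of the 59 were called lower, Atad2, Asf1b, Brca1 and E2f8, at -0.58, -1.56, -1.03 and -0.74. In that comparison 1.39% of all genes were called in either direction. Of 25 G2 and mitosis genes, 24 were called higher in MPP3 than in ST-HSC (median 1.55), 23 in MPP4 (median 1.28), and 13 were called lower in ST-HSC than in LT-HSC (median -0.97). Kif11, a spindle motor, was 1.58 ± 0.16 above ST-HSC in MPP3 (adjusted p = 8.78e-07). Mki67, the proliferation marker, was at 415.3 to 715.1 CPM in ST-HSC, 750.3 to 3114 in LT-HSC, 956.8 to 1382 in MPP4 and 1213 to 1625 in MPP3. Its highest LT-HSC value was that of control LT-HSC replicate 1, and the next was 1419 CPM. The G2 and mitosis genes summed to 5971 CPM in that library and 2676 CPM in control LT-HSC replicate 4. The part of its neutrophil and erythroid RNA in these values was not tested. The replication list had a smaller median difference from ST-HSC than the mitotic list in both progenitors, and the difference between the lists was not tested.

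Between mutant and control cells, none of the 43 genes passed the threshold in the 4 populations in the main edgeR fits or with DESeq2. With the replicate number of the title as a block, edgeR called Rrm2 in LT-HSC, against 2.85% of all genes. In the main edgeR fits 0% of all genes were called in each population. With DESeq2 the share of all genes was 0.0382% in MPP4, 0.0148% in MPP3, 0% in ST-HSC and 2.1% in LT-HSC. At an unadjusted p under 0.05 there were 2 in LT-HSC, against 8.51% of all genes, and 0 in ST-HSC, MPP3 and MPP4, against 3.68%, 2.23% and 3.15%. The median log2 differences of the 43 were 0.01 in MPP4 (23 genes higher in mutants), -0.05 in MPP3 (16), 0.08 in ST-HSC (25) and -0.09 in LT-HSC (16). Standard errors had medians of 0.266, 0.284, 0.38 and 0.285 in that order on the log2 scale, so differences of that size in a single gene lie within the error. A p that misses the threshold does not show that mutant and control cells are alike.

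Rrm2 had the smallest p in LT-HSC. It was at 206.9, 72.87, 73.04 and 36.99 CPM in control LT-HSC and 44.42, 50.68 and 20.6 in mutant LT-HSC, so the groups overlapped (-1.34 ± 0.52, adjusted p = 0.463). Against control LT-HSC replicate 4 alone, at 36.99 CPM, the difference of Rrm2 was 0.07. The control libraries left out there were those with more neutrophil and erythroid RNA, and the part of that RNA was not tested. The next were Tyms (-0.48, adjusted p = 0.536), Gins1 (0.85, adjusted p = 0.651), Cdc6 (-0.90, adjusted p = 0.652) and Ccne1 (-1.20, adjusted p = 0.677). Tyms was at 168.7, 119, 152.8 and 113.8 CPM in control LT-HSC and 98.77, 86.96 and 113.9 in mutant LT-HSC. Cdc6 was at 106.9, 36.62, 37.81 and 23.86 CPM and 32.99, 29.83 and 19.8, and Ccne1 at 25.18, 5.706, 9.276 and 5.082 CPM and 4.111, 8.062 and 2.633. In Rrm2, Cdc6 and Ccne1 the highest value was that of control LT-HSC replicate 1. Within the 2 column-name prefixes, the median mutant minus control log2 ratio of the 43 in LT-HSC was -0.45 (1 mutant and 2 control libraries) and 0.15 (2 and 2), so it did not keep its direction.

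In ST-HSC the smallest p was that of Mcm3, at 66.85, 66.58 and 60.64 CPM in controls and 84.74, 86.3, 92.78 and 87.47 in mutants, without overlap (0.44 ± 0.23, adjusted p = 0.998). E2f1, at 11.36, 10.63 and 6.526 CPM in controls and 12.27, 15.04, 16.78 and 15.14 in mutants, also did not overlap (0.63 ± 0.45, adjusted p = 0.998). These are 2 of 43 genes with every mutant library higher (4.65%), against 2.23% of all genes. None of the 43 had every mutant library lower, against 2.48% of all genes. In either direction the shares were 4.65% of the 43 and 4.71% of all genes. Pold2, Rpa3 and Mcm4 followed, at 0.70, -0.98 and 0.39 (adjusted p = 0.998 each).

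In MPP3 the smallest p was that of Gins4, at 25.31, 15.56 and 16.73 CPM in controls and 26.54, 43.12, 25.39 and 32.1 in mutants, without overlap (0.72 ± 0.34, adjusted p = 1). Rfc5 also had every mutant library higher, which made 4.65% of the 43 genes against 2.16% of all genes. None of the 43 had every mutant library lower, and in either direction the shares were 4.65% of the 43 and 4.35% of all genes. Ccne1, Pola2, Mcm6 and Mcm5 came next in MPP3, at -0.99, 0.38, -0.31 and -0.33 (adjusted p = 1 each). In MPP4 Pold2 was at 22.41, 38.31, 34.56 and 17.99 CPM in controls and 24.77, 15.31, 16.24 and 18.36 in mutants, with overlap (-0.59 ± 0.31, adjusted p = 0.999). Gins4, Pola2, Rpa3 and Rfc2 followed at 0.40, -0.32, 0.63 and -0.40 (adjusted p = 0.999 each). In LT-HSC 1 gene, Rfc3, had every mutant library higher (2.33% against 3.57% of all genes), and in MPP4 none did (0.936% of all genes). In either direction the shares were 2.33% against 7.02% of all genes in LT-HSC and 0% against 2.29% in MPP4.

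**Figure D4:**
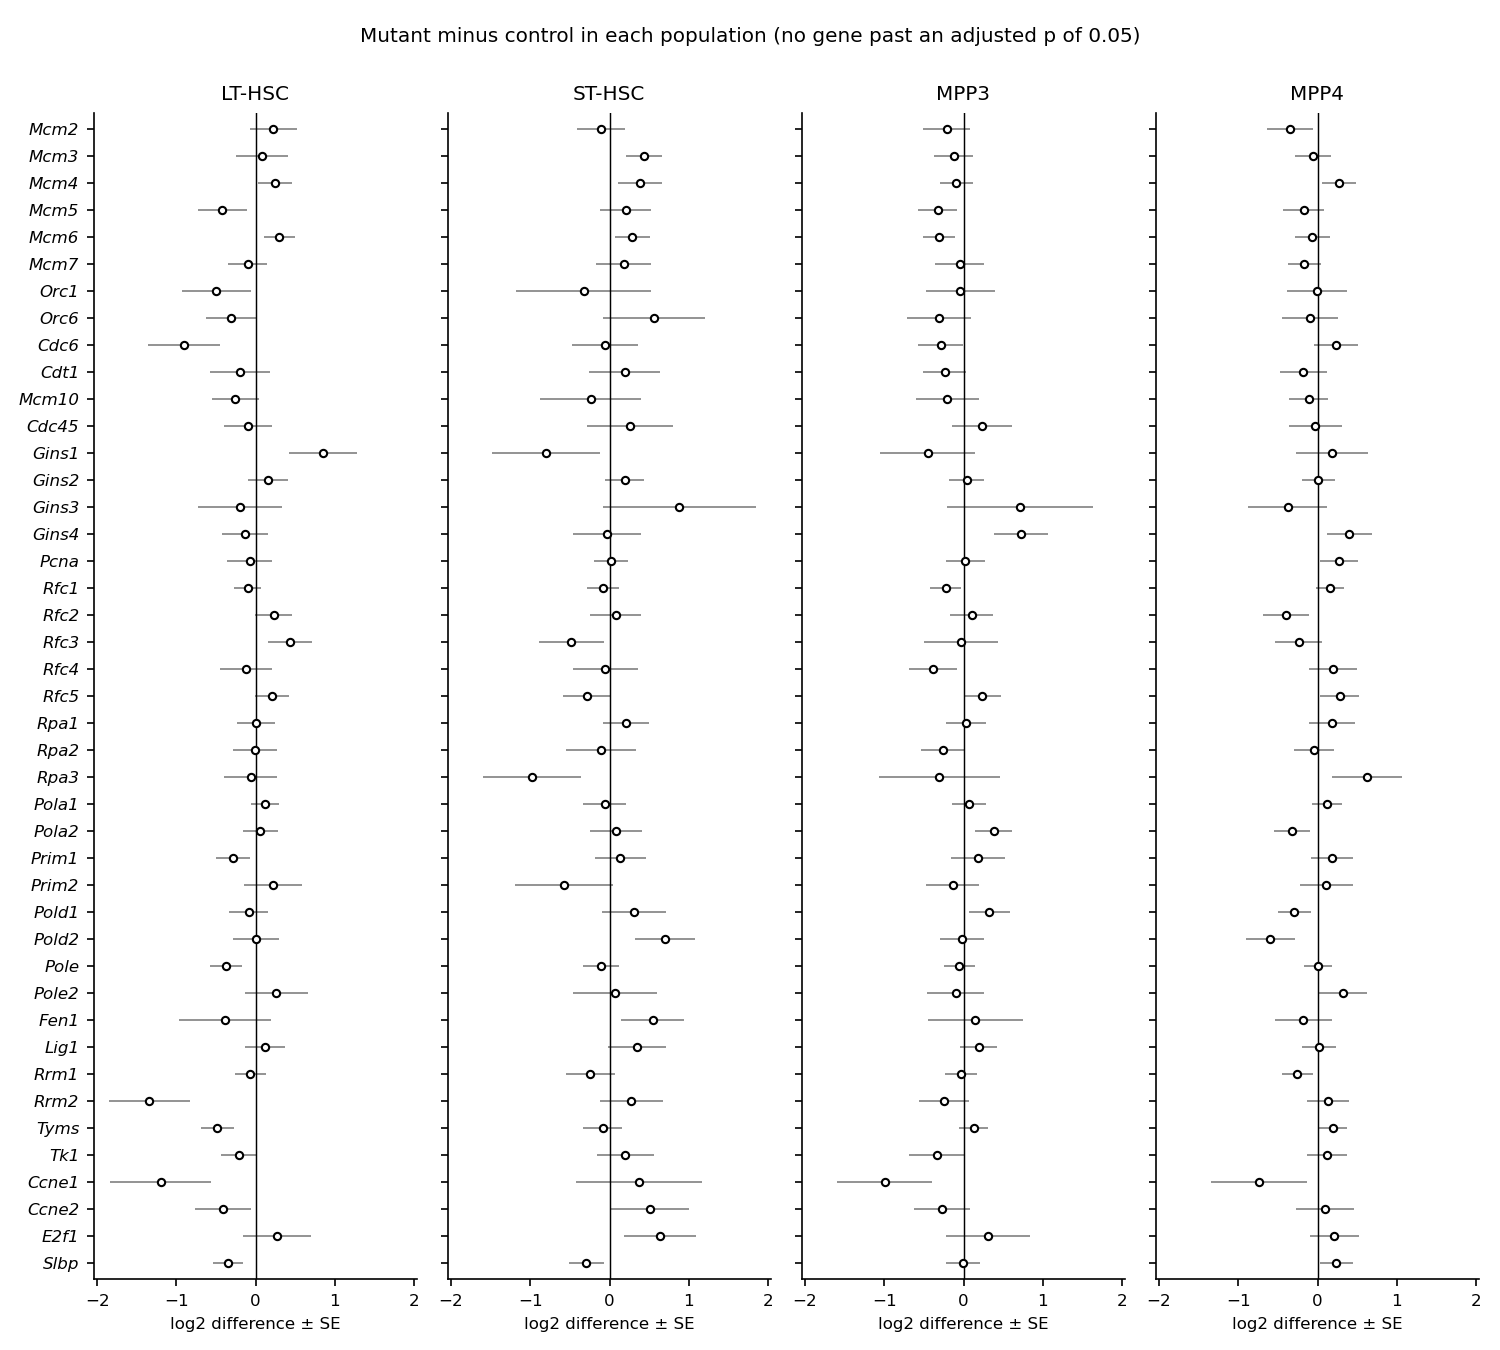
Mutant minus control log2 difference, with its standard error, of each of the 43 genes, with 1 panel per population. No point passed an adjusted p of 0.05, and the genes scatter on both sides of 0 in every panel.

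Averaged over the 4 populations, the mutant effect called 0 of the 43 genes with edgeR, DESeq2 and limma. Over all genes the share called was 0.0251% with edgeR and 0.7% with DESeq2. None of the 43 had an unadjusted p under 0.05 with edgeR, against 7.53% of all genes. The smallest p-values were those of Ccne1 (-0.64 ± 0.35, adjusted p = 0.712), Mcm4 (0.21 ± 0.12, adjusted p = 0.725), E2f1 (0.36 ± 0.22, adjusted p = 0.771), Pole (-0.13 ± 0.08, adjusted p = 0.797) and Gins4 (0.24 ± 0.16, adjusted p = 0.818). The standard errors of this average had a median of 0.157. The test of whether the mutant effect differed between populations also called 0 of the 43, against 0% of all genes, and 1 had an unadjusted p under 0.05, against 5.94% of all genes. That was Pold2, at 0.70 in ST-HSC and -0.59 in MPP4 (unadjusted p = 0.0361, adjusted p = 0.786), followed by Rrm2, Tyms, Mcm6 and Slbp. Mutants were higher in all 4 populations for Gins2, Lig1 and E2f1, and in none for Orc1, Mcm10, Rpa2 and Rrm1.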

How the data were processed

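The authors deposited 1 table of estimated counts for 38924 Ensembl genes in 29 libraries, whole numbers in the file. The submitters' processing notes name GRCm38, edgeR 3.5.3, SAMtools 0.1.18, Bowtie2 2.2.0 and RSEM 1.2.12, without role or order. Per the labels' protocols, the RNeasy Micro kit was used for RNA. Symbols came from the GRCm38 annotation for 37607 identifiers, and the 1317 others held 0.87 to 1.25% of the counts. The counts were tested with edgeR 4.0.16 in R 4.3.3 (quasi-likelihood test, TMM, filterByExpr with a minimum count of 10 and total of 15, Benjamini-Hochberg adjustment over all genes tested, threshold 0.05), in separate fits for mutant against control in each population, for control populations, for mutant populations and for all 29 libraries. All 43 genes passed the low-count filter in every fit. DESeq2 1.42.0, limma 3.58.1, other scaling, filters, blocks and left-out libraries were alternatives. The procedure was also run on simulated counts drawn as independent libraries, but not for the tests of populations over both genotypes. The outcome of that run is not given here. The 43 genes and the comparison lists were chosen with earlier results of these data known. Genes were named where they passed the threshold, otherwise the 5 with the smallest p, and 1 or more fixed genes per role were added. The column-name prefix, the left-out sets of libraries and the tests over both genotypes were chosen after seeing the data. Of the 43 genes, 16 are overlapped by another annotated gene.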

Additional observations from a re-analysis of the deposited data

Results flagged for a closer look

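In groups of 4 libraries, the library farthest from the others was compared with Dixon's criterion in 135 groups, covering the summed level and the 26 genes that were called in a comparison or fixed as examples of a role, and 8 values stood apart. Chance alone sets apart about 1 in 20 such groups. In mutant MPP4 replicate 3, Mcm3 was at 168.7 CPM (others 96.22 to 106.4) and Mcm6 at 274.9 CPM (others 154.4 to 167.8). In mutant MPP3 replicate 1, which detected the fewest genes, Cdc45 was at 48.06 CPM (others 19.43 to 24.02) and Fen1 at 121.2 CPM (others 22.11 to 27). In control MPP4, Mcm4 was at 161.4 CPM in replicate 2 (others 86.64 to 95.41), Pola1 at 105.2 CPM in replicate 3 (others 85.46 to 87.65) and Gins2 at 121.2 CPM in replicate 4 (others 77.59 to 82.64). In control LT-HSC replicate 1, Cdc6 was at 106.9 CPM (others 23.86 to 37.81). All 8 values were the highest of their group.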

How the results depend on the processing

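With the replicate number of the title as a block, Rrm2 was called in mutant against control LT-HSC (-1.54, adjusted p = 0.0246), which made 1 gene. With the number in the description as a block, mutant MPP3 against ST-HSC had 2 calls (4.65%), against 4.06% of all genes. Rrm2 (adjusted p = 0.0564), Pole (0.0529) and Prim2 (0.064) were lost there, and MPP3 against LT-HSC over both genotypes had 0 calls. In control MPP3 against ST-HSC, Rrm2 took the place of Tk1 (0.977% of all genes called), and over both genotypes Gins2 was gained in MPP4 against ST-HSC. The blocks changed no other count by over 1.5 times. By description, correlations of same-numbered libraries ran from -0.183 to 0.179 (median 0.0336 over 39 pairs, against -0.0106 for different numbers). By title they ran from -0.212 to 0.0904 (13 pairs), and the consensus correlation by description was -0.000528. Such low values do not show whether same-numbered libraries came from 1 animal.

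DESeq2 called 2 genes in control ST-HSC against LT-HSC (2.15% of all genes), 8 in control MPP3 against ST-HSC (5.11%), 6 in control MPP4 against ST-HSC (4.07%), 2 in mutant MPP3 against LT-HSC (5.95%), 1 in mutant MPP4 against LT-HSC (3.94%), 8 in mutant MPP3 against ST-HSC (8.38%) and 2 in mutant MPP4 against ST-HSC (4.92%). Over both genotypes it called 3 in ST-HSC against LT-HSC (2.8%) and 4 in MPP3 against LT-HSC (9.56%). With no low-count filter there were 3 in control MPP3 against ST-HSC (1.76%) and, over both genotypes, 1 in ST-HSC against LT-HSC and 0 in MPP3 against LT-HSC. A fit of all 29 libraries gave 1 in control MPP4 against ST-HSC (1.27%) and 2 in mutant MPP4 against ST-HSC (2.99%). The prefix term gave 3 in control MPP3 against ST-HSC (2.18%) and 1 in mutant MPP4 against LT-HSC (2.23%). Without mitochondrial genes and Gm42418 there was 1 in mutant MPP4 against ST-HSC (2.27%). Without the 2 libraries with the fewest genes, mutant MPP3 had 1 against LT-HSC (3.55%) and 3 against ST-HSC (3.07%). Mutant MPP4 had 1 against LT-HSC (4%) and 1 against ST-HSC (3.02%). There were 0 in MPP3 against LT-HSC over both genotypes. In that last comparison RLE scaling gave 1, Pold1. Leaving out control LT-HSC replicates 1, 2 and 3, which left replicate 4 alone in that group, lost Pold1 and Pole.

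Leaving out 1 library at a time also moved the share of all genes called, given in parentheses. Over both genotypes it gave 11 to 18 calls in MPP3 against ST-HSC (6.99 to 10.7%), 7 to 11 in MPP4 against ST-HSC (4.73 to 8%), 0 to 5 in MPP3 against LT-HSC (4.3 to 8.47%), 1 to 2 in MPP4 against LT-HSC (5.33 to 7.98%), 0 to 1 in ST-HSC against LT-HSC (0.739 to 1.66%) and 0 in MPP4 against MPP3. Among controls it gave 0 to 3 in MPP3 against ST-HSC (0.275 to 2.52%), 0 to 2 in MPP4 against ST-HSC (0.615 to 2.12%) and 0 to 1 in ST-HSC against LT-HSC (0 to 1.43%). Among mutants it gave 1 to 5 in MPP3 against ST-HSC (2.63 to 4.4%) and 0 to 1 in MPP3 against LT-HSC (1.07 to 4.04%), MPP4 against LT-HSC (1.13 to 2.77%) and MPP4 against ST-HSC (1.47 to 3.16%). The other comparisons stayed at 0.

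With replicate 4 as the only control LT-HSC library, the mutant minus control difference in LT-HSC turned to 0.0678 for Rrm2 and 0.214 for Cdc6. Leaving out 1 MPP4 library gave -0.0217 to 0.896 for Rpa3, mutant against control in MPP4, the lowest without mutant replicate 3. The causes of these changes were not tested. With 3 or 4 libraries a group, standard errors of single genes limit what can be called.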
